A study of Mus musculus with 8 samples.

Results

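The genes described here are 45 genes of DNA replication and S phase, listed by name for their function. The list was made with earlier results of these data known, and it leaves out other replication genes, which are described below. All 45 listed symbols were found among the 11854 named genes of the deposited table. They were divided by role into origin licensing (6 genes), the replicative helicase (10), the sliding clamp and its loader (6), DNA polymerases and primase (7), lagging strand and single-stranded DNA (4), nucleotide supply (4), chromatin and histone supply (5), and fork protection with S phase control (3). Haematopoietic stem cells (HSCs), the rare bone marrow cells from which all blood lineages descend, were sorted from mouse bone marrow, and their polyadenylated RNA was sequenced. The mice were on a C57BL/6 background (C57BL/6J in the growth protocol), 4 of them wild type and 4 Nupr1-/-, with 1 library per mouse and no treatment of either group. Nupr1 encodes a small chromatin-associated stress protein. The sort markers, the age and sex of the mice and the deleted part of Nupr1 are not given in the sources used here.

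Before a cell copies its DNA, the origin recognition complex, Cdc6 and Cdt1 load the Mcm2-7 helicase onto replication origins, a step called licensing. Cdc45 and the GINS complex then activate the helicase, primase and polymerase alpha start each strand, and polymerases delta and epsilon extend it on the ring-shaped clamp Pcna, which replication factor C loads. Most HSCs of adult mice are out of the cell cycle, and many replication genes are transcribed under E2F factors as cells enter S phase. In a bulk library, fewer cycling cells and less RNA of these genes per cell cannot be told apart.

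Depth was 2296101 to 4769401 recovered reads per library, with 11018 to 11701 genes read. Neither measure separated the groups by an exact two-sided permutation test of 70 assignments, whose smallest p is 0.0286 (reads p = 0.171, genes p = 0.314, adjusted p = 0.314 for both). Nupr1 itself was read in every library, at 246 ± 80.2 normalised reads in wild type and 168 ± 34.96 in the libraries labelled knockout (SD, n = 4 each). These ranges overlapped and the log2 difference was -0.50 (limma adjusted p = 0.433). Because reads outside a deleted stretch would still be counted, this checks the labels neither way, and the second group is called the libraries labelled knockout. The tumour suppressor Trp53, a regulator of the cell cycle, fell from 548 ± 74.99 to 99.4 ± 28.2 normalised reads (log2 difference -2.49, limma adjusted p = 0.00155). On the first principal component, which held 25.6% of the variance, wild type library 2 lay away from the 7 others. The second held 22.4%, and there wild type libraries 1, 3 and 4 lay at 45.7 to 67.3. Wild type library 2, at -21.8, was on the side of the 4 libraries labelled knockout (-61.3 to -24.1). All 14 listed HSC markers were in the table, with summed levels of 10415 to 14414 in wild type and 9720 to 12403 in the libraries labelled knockout. Of the 14, 7 lay above 0 and 7 below, at a median log2 difference of 0.03. By the test 1 fell (Mllt3, named after its value was seen), against 3.8% of all tested genes in either direction. An unadjusted p under 0.05 was found for 4 of the 14, all lower, of which 2 did not overlap. Over all 10989 tested genes, 1071 were lower at such a p and 649 were lower without overlap.

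Most of the 45 genes lay higher in the libraries labelled knockout, but none passed the test. All 45 passed the filter on low values and were tested with limma over 10989 genes. Of these genes 3.8% passed at an adjusted p under 0.05, and 0 of the 45 did, in either direction. The log2 difference (knockout label minus wild type, on the log2(value + 1) scale) was above 0 for 37 of the 45, against 51.3% of all tested genes. Their median difference was 0.39, against 0.03 over all tested genes. At an unadjusted p under 0.05 stood 9 of the 45, all higher: Mcm3, Mcm5, Mcm6, Mcm7, Rfc2, Prim1, Pold1, Lig1 and Chaf1a. Among all tested genes 19.7% had such a p in either direction and 9.91% in the higher direction. The groups did not overlap for 3 of the 45, Gmnn, Rfc2 and Chaf1b, all higher. That share, 6.67%, is near the 5.78% of all genes without overlap in that direction (11.7% in either).

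How many of the 45 passed varied with the tool. It was 0 with edgeR on recovered reads and TMM factors (2.79% of all genes passed), 2 with DESeq2 (6.95%), and 1 with limma-voom (2.78%). With 5 or 10 added before the log2 it was 2 (4.43% and 4.8% of all genes), and with the filter on low values at 50 it was also 2 (5.65%). Mcm5 and Rfc2 were the genes that passed in the fits with 2, and Rfc2 the one in limma-voom. With the replicate number as a block, 1 passed, Mcm5 (2.52% of all genes). The median log2 difference of the 45 was 0.26 with edgeR, 0.27 with DESeq2 and 0.42 with limma-voom, with 35, 35 and 37 above 0. The signs of Mcm4 and Uhrf1 turned with edgeR and DESeq2.

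The spread among the 4 wild type mice was of the same order as the difference between the groups. The normalised reads of the 45 genes summed to 12932, 23154, 19677 and 19261 in wild type libraries 1 to 4. In libraries 1 to 4 labelled knockout they summed to 21164, 21272, 23419 and 27562. Wild type library 1 was the lowest of the 8 and knockout-labelled library 4 the highest, while wild type library 2 lay within the range of the other group. Single genes showed which libraries these were. The first wild type library held the lowest of the 8 values for 25 of the 45 genes, and knockout-labelled library 4 the highest for 18, followed by wild type library 2 with 11 and knockout-labelled library 3 with 7.

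The group difference therefore depended on which library was left out. Without wild type library 1, 30 of the 45 genes lay above 0 (51.6% of all tested genes) and their median difference was 0.19. The signs of Mcm4, Mcm10, Gins1, Pola2, Rrm1, Dut and Uhrf1 turned. Without knockout-labelled library 4 the count was 32 and the median 0.26. Without wild type library 2 it was 38, the median was 0.45, and 5 genes rose by the test: Mcm3, Mcm5, Rfc2, Lig1 and Chaf1a (8.15% of all genes passed). In a fit without both wild type libraries 1 and 2, which was added after the data were seen, 31 lay above 0 with a median of 0.22, and Mcm5, Pold1 and Chaf1a passed (4.95% of all genes).

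**Figure D1:**
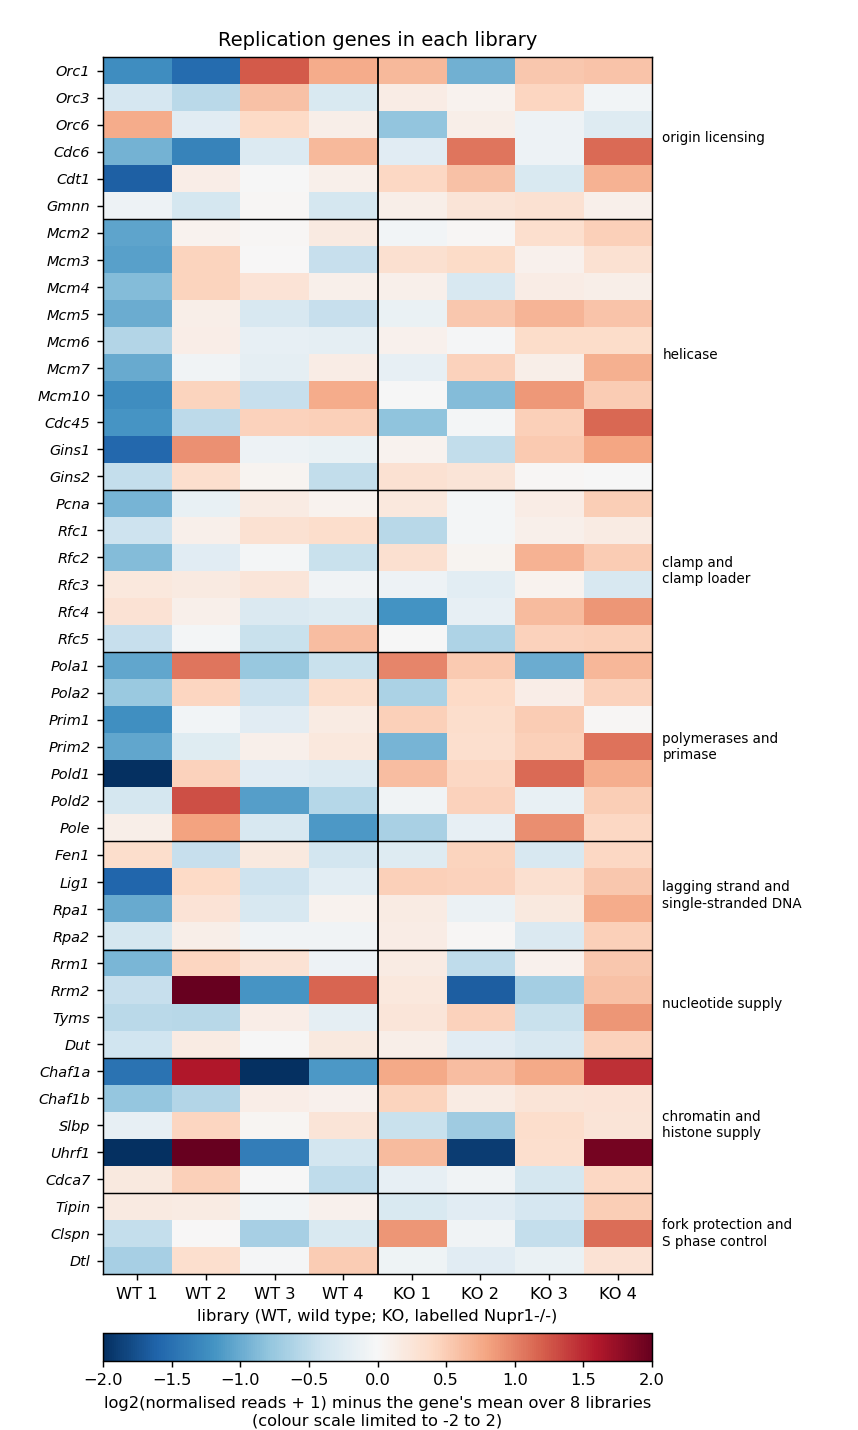
Heat map of the 45 replication genes (rows, ordered by role) in the 8 libraries (columns); colour is the gene's log2(value + 1) in a library minus its mean over the 8. Wild type library 1 is low for most rows and holds the lowest value of 25 genes, and knockout-labelled library 4 holds the highest of 18.

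Markers of mitosis, the phase after S phase, showed a like order of libraries. The 28 listed markers, all in the table, summed to 1870, 7338, 3011 and 4675 in wild type and 3929, 2653, 4544 and 8494 in the libraries labelled knockout. Again wild type library 1 was lowest and knockout-labelled library 4 highest. None of the 28 passed the test, 20 lay above 0, and their median difference was 0.31, which became -0.01 without wild type library 1 and -0.06 without knockout-labelled library 4. The proliferation antigen gene Mki67 stood at 38.3, 419, 125 and 265 in wild type and 222, 278, 601 and 706 under the knockout label. Top2a, which untangles replicated DNA, averaged 474 ± 315 and 451 ± 253. The part of these differences between libraries in the replication genes was not tested.

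**Figure D2:**
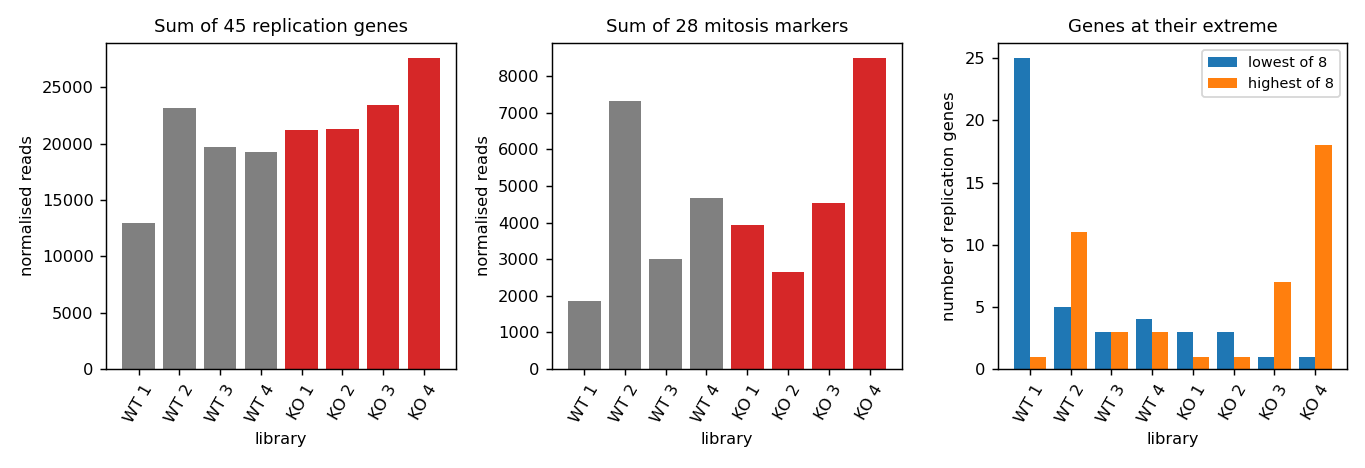
Bars give, for each of the 8 libraries, the summed normalised reads of the 45 replication genes (left), of the 28 mitosis markers (middle), and the number of replication genes at their lowest or highest of the 8 values (right). Wild type is grey and the knockout label red in the first panels; wild type library 1 is lowest and knockout-labelled library 4 highest in both sums.

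Origin licensing genes were mostly higher under the knockout label, with no gene at an unadjusted p under 0.05. Of the 6 genes 5 were above 0, at a median of 0.40, from -0.52 for Orc6, a subunit of the origin recognition complex, to 0.95 for the helicase loader Cdc6. Geminin (Gmnn), which binds Cdt1 and blocks a second round of licensing, gave 196, 165, 212 and 164 normalised reads in wild type and 229, 251, 260 and 226 under the knockout label. All 4 of the latter were higher than all 4 wild type values. The means were 184 ± 24.05 and 241 ± 16.5, and the log2 difference was 0.39 ± 0.28 (SE; limma adjusted p = 0.468). Its partner Cdt1, the licensing gene of highest mean, gave 136, 464, 421 and 455 against 560, 635, 342 and 682. Only wild type library 1 lay well below the rest, and knockout-labelled library 3 lay within the wild type range. The Cdt1 log2 difference was 0.69 ± 0.35 (limma adjusted p = 0.290), 0.27 without wild type library 1 and 0.17 with the trend in GC content and transcript length removed. Cdc6 averaged 54.9 ± 35.6 and 102 ± 49.0, Orc1 33.2 ± 27.9 and 34.9 ± 14.2, and Orc3 differed by 0.29 ± 0.30.

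All 10 helicase genes lay above 0 in the main comparison, and 4 of the 6 subunits of the Mcm2-7 ring had an unadjusted p under 0.05. The median of the ring subunits was 0.47, and that of Mcm10, Cdc45, Gins1 and Gins2, which activate or stabilise it, 0.33. Mcm4, at 505 ± 171 and 488 ± 68.3, had a log2 difference of 0.02 that turned below 0 with edgeR and DESeq2, leaving 9 of 10 above 0 there. Without wild type library 1 the count was 7 of 10. In the summed helicase reads, wild type library 1 had 3766 and the other 7 libraries 6155 to 9119.

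Mcm5 (chr8:75109569-75128439, plus strand, mm10) differed most within the ring. Its normalised reads were 475, 1023, 756 and 682 in wild type and 860, 1375, 1505 and 1407 under the knockout label. Only knockout-labelled library 1 fell below the highest wild type value, that of library 2. The means were 734 ± 226 and 1287 ± 290, and the log2 difference 0.83 ± 0.24 (limma adjusted p = 0.0582). With 1 library left out at a time, its adjusted p ran from 0.00889 to 0.162.

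Mcm3 (chr1:20802968-20820312, minus strand) gave 432, 1247, 924 and 667 in wild type against 1148, 1202, 975 and 1131. The highest of all 8 values was that of wild type library 2. The Mcm3 log2 difference was 0.55 ± 0.26 (limma adjusted p = 0.245) and 0.28 without wild type library 1. Mcm6 (chr1:128331590-128359664, minus strand) gave 1140, 1884, 1536 and 1509 against 1824, 1682, 2201 and 2207. Again wild type library 2 reached into the other group, and the log2 difference was 0.40 ± 0.18 (limma adjusted p = 0.238). Mcm7 (chr5:138164583-138172422, minus strand) gave 416, 805, 739 and 930 against 754, 1153, 911 and 1372. Here wild type libraries 2 and 4 reached into the other group. The Mcm7 difference was 0.56 ± 0.25 (limma adjusted p = 0.224) and 0.31 both without wild type library 1 and with the GC and length trend removed. Of its exon bases, 557 of 4426 overlap other genes.

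Mcm2 was at 743 ± 239 and 933 ± 160, a log2 difference of 0.39 ± 0.25 that became 0.10 without wild type library 1 and 0.01 with the trend in GC content and transcript length removed. Of the helicase activators, Cdc45 gave 158 ± 78.6 and 208 ± 114, Gins1 126 ± 80.1 and 152 ± 55.4, Gins2 667 ± 190 and 794 ± 87.5, and Mcm10 58.1 ± 32.4 and 66.9 ± 31.2. For each of the 4, the group means differed by less than the larger SD. Reads of Gins2 are uncertain, since 2758 of its 4097 exon bases overlap Gse1 on the opposite strand and the library kit does not mark strand.

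Promoter sequence was examined because E2F factors are the textbook regulators of this gene set. The windows, from RefSeq (GRCm38.p6), run from 250 bases before to 50 after the start site, and 37 of the 45 genes matched by symbol. The E2F letters searched were TTTCCCGC, TTTCGCGC, TTTGCCGC and TTTGGCGC on both strands. They occurred in 14 of the 37 windows (37.8%), in 4.32% of the 8308 windows of tested genes and in 2.26% of all 32851 windows. Where a gene had several windows, that nearest the annotated gene start was used for the 37. Among the tested genes it was that of lowest coordinate, here and for the other letters below. The windows of Mcm3, Mcm5, Mcm6 and Mcm7, the ring subunits with an unadjusted p under 0.05, are printed with those matches in capitals, and that of Mcm2, which has none, is printed for contrast. They lie at chr1:20820263-20820562 (minus strand) for Mcm3, chr8:75109259-75109558 (plus) for Mcm5, chr1:128359656-128359955 (minus) for Mcm6, chr5:138171834-138172133 (minus) for Mcm7 and chr6:88898731-88899030 (minus) for Mcm2.
Mcm3: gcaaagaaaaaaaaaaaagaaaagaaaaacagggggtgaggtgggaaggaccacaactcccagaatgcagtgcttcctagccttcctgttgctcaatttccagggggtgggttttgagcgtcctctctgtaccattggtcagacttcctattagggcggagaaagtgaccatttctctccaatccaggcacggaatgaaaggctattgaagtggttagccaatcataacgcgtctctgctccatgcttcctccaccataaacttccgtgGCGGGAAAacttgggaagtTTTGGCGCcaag
Mcm5: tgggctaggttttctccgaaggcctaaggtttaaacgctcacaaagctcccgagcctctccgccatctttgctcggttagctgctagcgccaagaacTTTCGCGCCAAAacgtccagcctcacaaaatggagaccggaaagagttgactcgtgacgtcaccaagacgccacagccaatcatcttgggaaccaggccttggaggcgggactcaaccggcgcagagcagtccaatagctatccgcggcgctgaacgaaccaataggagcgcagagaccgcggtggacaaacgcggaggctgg
Mcm6: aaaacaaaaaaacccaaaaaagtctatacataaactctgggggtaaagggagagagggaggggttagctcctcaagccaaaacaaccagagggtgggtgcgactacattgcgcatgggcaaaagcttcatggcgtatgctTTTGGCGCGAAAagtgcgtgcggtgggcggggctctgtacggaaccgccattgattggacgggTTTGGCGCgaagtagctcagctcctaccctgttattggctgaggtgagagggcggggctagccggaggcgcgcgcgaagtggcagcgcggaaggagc
Mcm7: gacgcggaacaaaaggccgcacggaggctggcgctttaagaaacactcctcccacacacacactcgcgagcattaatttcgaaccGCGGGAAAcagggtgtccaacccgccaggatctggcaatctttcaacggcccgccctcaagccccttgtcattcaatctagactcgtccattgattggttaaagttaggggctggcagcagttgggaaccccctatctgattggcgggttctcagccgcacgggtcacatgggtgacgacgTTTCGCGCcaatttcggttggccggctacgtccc
Mcm2: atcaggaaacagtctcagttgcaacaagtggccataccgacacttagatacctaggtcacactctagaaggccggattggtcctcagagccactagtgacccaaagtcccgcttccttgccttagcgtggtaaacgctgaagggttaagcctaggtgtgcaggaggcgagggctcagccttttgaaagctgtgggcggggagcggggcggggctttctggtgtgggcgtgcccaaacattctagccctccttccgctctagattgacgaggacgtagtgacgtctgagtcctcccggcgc
Mcm3 and Mcm7 hold 2 matches each and Mcm6 holds 3. The run of capitals in Mcm5 is 2 matches on opposite strands that overlap, and the first run in Mcm6 is another such pair. A match is a description of the letters and not a bound site.

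The other windows with a match belong to Orc1, Orc3, Cdc6, Cdt1, Rfc3, Pola1, Pold1, Cdca7, Clspn and Dtl. The 14 genes with a match had a median log2 difference of 0.55, with 11 above 0. The 23 genes with a window and no match had a median of 0.26, with 19 above 0, and the 8 genes without a window 0.34, with 7 above 0. The difference between these medians was not tested. Of other promoter letters, the CCAAT box (CCAAT, both strands) stood in 64.9% of the 37 windows, against 38.9% of windows of tested genes. The GC box (GGGCGG) stood in 70.3% against 65.6%, and the letters TTTGAA of the CHR element, known from promoters of mitosis genes, in 8.11% against 11.7%.

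**Figure D3:**
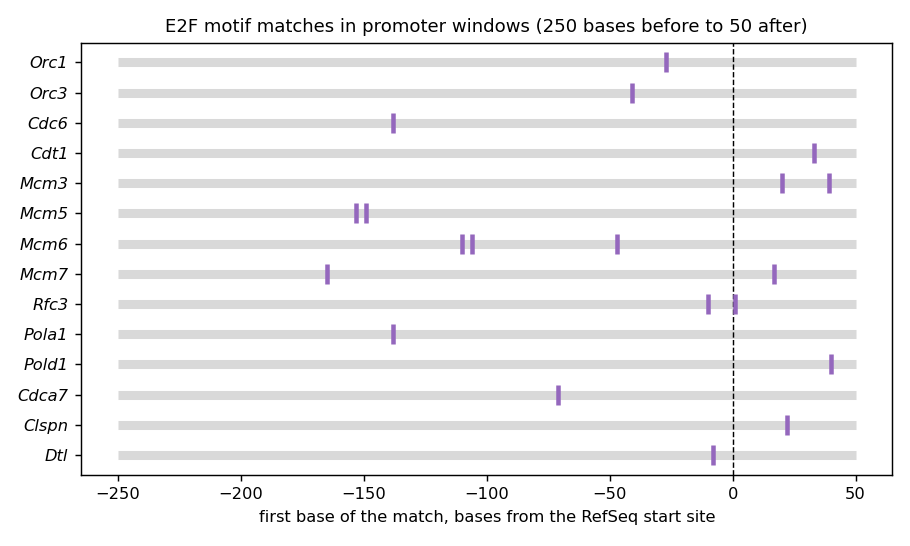
Each grey bar is the promoter window of one of the 14 genes with an E2F match, from 250 bases before to 50 after the RefSeq start site (dashed line), and each purple mark is the first base of a match. All but the marks of Cdc6, Pola1, Mcm5, Mcm7 and Mcm6 on the left lie within 100 bases of the start site.

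Of the clamp and its loader, only Rfc2 stood apart from wild type in all 4 libraries. Rfc2 (chr5:134581366-134601805, plus strand), a small subunit of replication factor C, gave 423, 662, 752 and 565 normalised reads in wild type and 962, 798, 1251 and 1099 under the knockout label. The groups did not overlap. The means were 600.3 ± 141 and 1028 ± 193, and the log2 difference was 0.79 ± 0.22 (limma adjusted p = 0.0522, 0.0245 to 0.153 with 1 library left out). Some of its reads may belong to Lat2 on the opposite strand, which shares 952 of its 6303 exon bases.

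The other 4 subunits of the same complex lay on both sides of 0. Their log2 differences were -0.17 for Rfc1, the large subunit, -0.29 for Rfc3, 0.08 for Rfc4 and 0.16 for Rfc5, each with an SE of 0.24 or more. The median over Rfc1 to Rfc5 was 0.08. With the GC and length trend removed, Rfc4 was at 0.40 and Rfc3 at -0.23, and no difference from Rfc2 was tested. Pcna (chr2:132249162-132253314, minus strand), the clamp itself, gave 1292, 2209, 2748 and 2585 in wild type against 2842, 2390, 2728 and 3440. Wild type library 1 was lowest and knockout-labelled library 4 highest, and the groups overlapped in between. Its means were 2208 ± 651 and 2850 ± 437, a log2 difference of 0.41 ± 0.21 (limma adjusted p = 0.285) that became 0.17 without wild type library 1.

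The polymerases and primase were all 7 above 0, their median log2 difference being 0.48, though with the GC and length trend removed the count was 5. Pold1 (chr7:44532746-44548849, minus strand), the catalytic subunit of polymerase delta, gave 52.2, 523, 323 and 312 normalised reads in wild type and 582, 509, 833 and 626 under the knockout label. The value of wild type library 1 was far below the rest, and only wild type library 2 reached into the other group. The Pold1 means were 303 ± 193 and 637 ± 139, and its log2 difference of 1.44 ± 0.57 (limma adjusted p = 0.189) became 0.74 without wild type library 1.

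Prim1 (chr10:128015168-128030037, plus strand), the catalytic primase subunit, gave 133, 303, 267 and 351 in wild type against 435, 399, 444 and 318. Knockout-labelled library 4 was the lowest of its group here, and wild type library 4 reached above it. Its log2 difference was 0.67 ± 0.30 (limma adjusted p = 0.225) and 0.37 without wild type library 1. Prim2, the other primase subunit, differed by 0.48 ± 0.42. The polymerase alpha subunits Pola1 and Pola2 differed by 0.59 ± 0.50 and 0.18 ± 0.33. Pold2 differed by 0.36 ± 0.40, and Pole, the catalytic subunit of polymerase epsilon, by 0.27 ± 0.39.

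**Figure D4:**
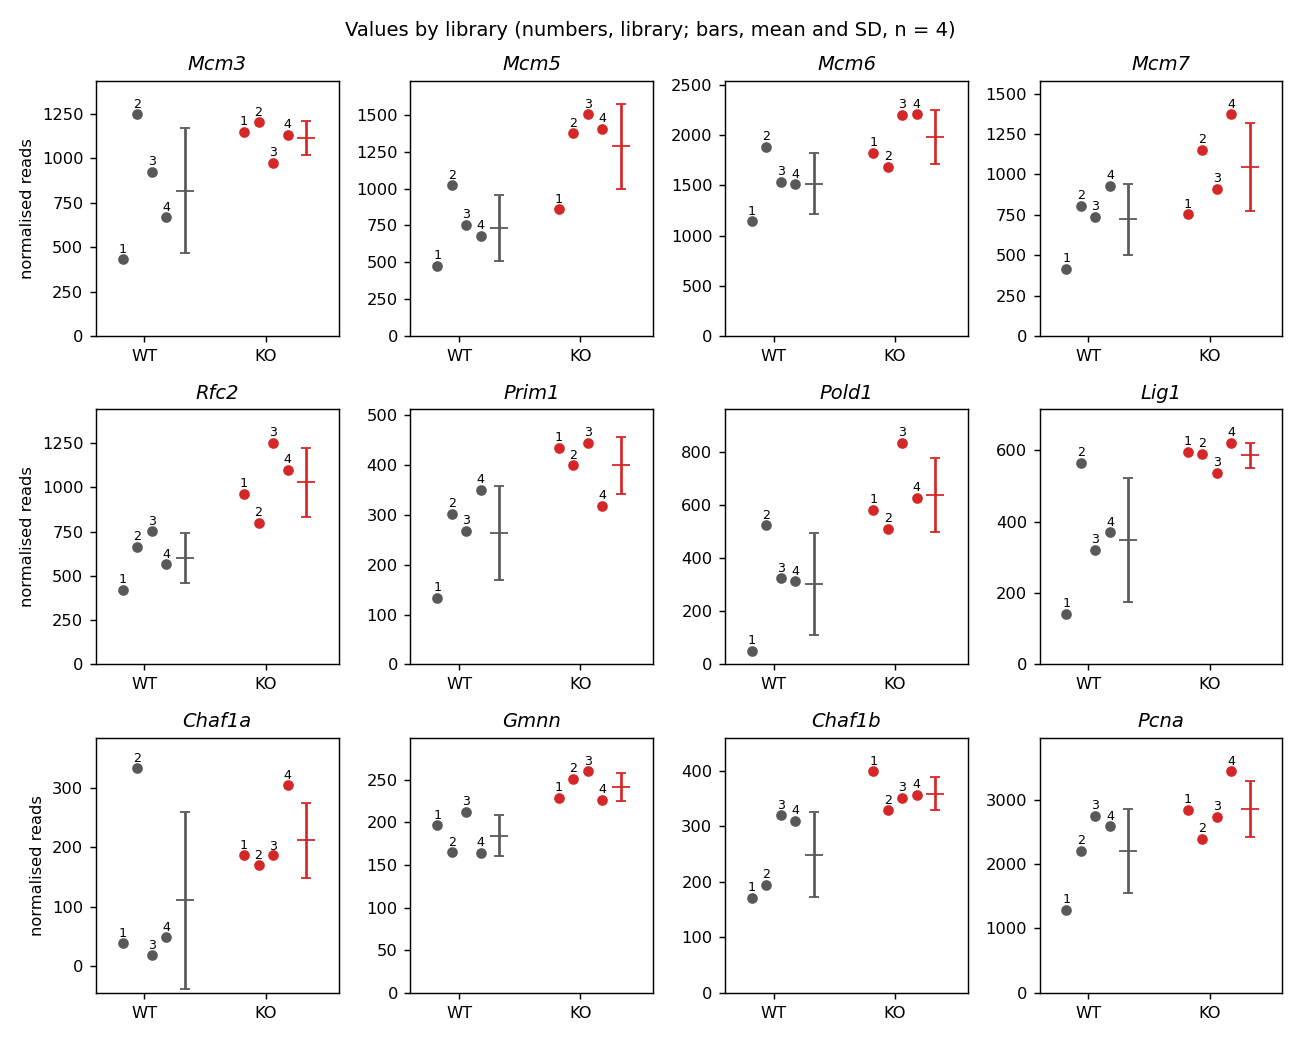
Normalised reads of 12 replication genes in the 8 libraries, 1 point per mouse, with the mean and SD of each group of 4; each panel has its own vertical axis, starting at 0 except for Chaf1a, whose SD bar reaches below 0. In Rfc2, Gmnn and Chaf1b the groups do not overlap; in the other panels at least 1 wild type value is above the lowest value of the other group.

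On the lagging strand, where DNA is made in short fragments, Lig1 was the gene with the smallest p. Lig1 (chr7:13277283-13311433, plus strand), the ligase that joins the fragments, gave 141, 565, 321 and 370 normalised reads in wild type and 595, 590, 536 and 621 under the knockout label. The 4 knockout-labelled values lay close together, with an SD of 35.6 against 174 in wild type. The log2 difference was 0.90 ± 0.32 (limma adjusted p = 0.123), and 0.52 without wild type library 1. Rpa1 and Rpa2, which coat single-stranded DNA, differed by 0.49 ± 0.29 and 0.18 ± 0.24. The flap nuclease gene Fen1 differed by 0.14 ± 0.34, but 2039 of its 2422 exon bases overlap Tmem258 or Gm10143 on the opposite strand.

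Nucleotide supply showed no common direction, with a median log2 difference of 0.08. Rrm1, the large subunit of ribonucleotide reductase, which makes deoxynucleotides, gave 357, 911, 828 and 630 normalised reads in wild type and 760, 475, 721 and 986 under the knockout label. The groups overlapped over most of their range (log2 difference 0.15 ± 0.28, limma adjusted p = 0.818; -0.13 without wild type library 1 and 0.46 with the GC and length trend removed). Its small S phase subunit Rrm2 gave 38.3, 217, 22.9 and 119 against 61.2, 16.2, 32.7 and 79.6, the lowest log2 difference of the 45 genes at -0.77 ± 0.73. Thymidylate synthase, Tyms, differed by 0.57 ± 0.30 (limma adjusted p = 0.296) and Dut, which removes dUTP, by 0.02 ± 0.23.

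Of the genes that rebuild chromatin behind the fork, both listed subunits of chromatin assembly factor 1 lay higher under the knockout label. Chaf1a (chr17:56040439-56072289, plus strand) gave 39.0, 335, 17.9 and 49.1 normalised reads in wild type and 187, 170, 186 and 306 under the knockout label. The value of wild type library 2 was the highest of all 8, and the other 3 wild type values were the lowest. The log2 difference was 1.79 ± 0.65 (limma adjusted p = 0.138) and 2.62 without wild type library 2, where Chaf1a passed (limma adjusted p = 0.00256). It was 0.96 with edgeR (adjusted p = 0.479) and 0.95 with DESeq2, which gave Chaf1a no adjusted p. The reads of Chaf1a are uncertain, since 4648 of its 8854 exon bases overlap Ubxn6 on the opposite strand.

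Chaf1b (chr16:93883901-93906115, plus strand), which shares no exon base with another gene, gave 171, 195, 320 and 309.9 in wild type against 399.6, 329, 352 and 356. The lowest of the latter was above the highest of the former. The log2 difference was 0.58 ± 0.28 (limma adjusted p = 0.261), 0.30 with the GC and length trend removed. Cdca7, a cofactor of the chromatin remodeller Hells, gave 925, 1125, 802 and 566 against 722, 769, 634 and 1071. No order of the groups was visible (log2 difference -0.08 ± 0.23, limma adjusted p = 0.882). Slbp, which binds histone mRNA, differed by -0.28 ± 0.26. Uhrf1, which brings Dnmt1 to new DNA, ranged most between mice, at 7.66, 260, 13.0 and 27.2 in wild type and 55.4, 8.73, 45.1 and 136 under the knockout label.

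Fork protection and S phase control genes lay on both sides of 0. Tipin, which holds polymerase and helicase together with its partner Timeless, gave 442, 435, 375 and 414 normalised reads in wild type and 316, 332, 310.1 and 546 under the knockout label. Of these, 3 knockout-labelled libraries were below all wild type values and library 4 was above them (log2 difference -0.19 ± 0.25, limma adjusted p = 0.721). The checkpoint mediator Claspin (Clspn) gave 33.9 ± 7.06 and 61.7 ± 30.5, a difference of 0.72 ± 0.63. Dtl, which marks Cdt1 for destruction in S phase, gave 214 ± 69.3 and 195 ± 32.99, a difference of -0.08 ± 0.33.

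**Figure D5:**
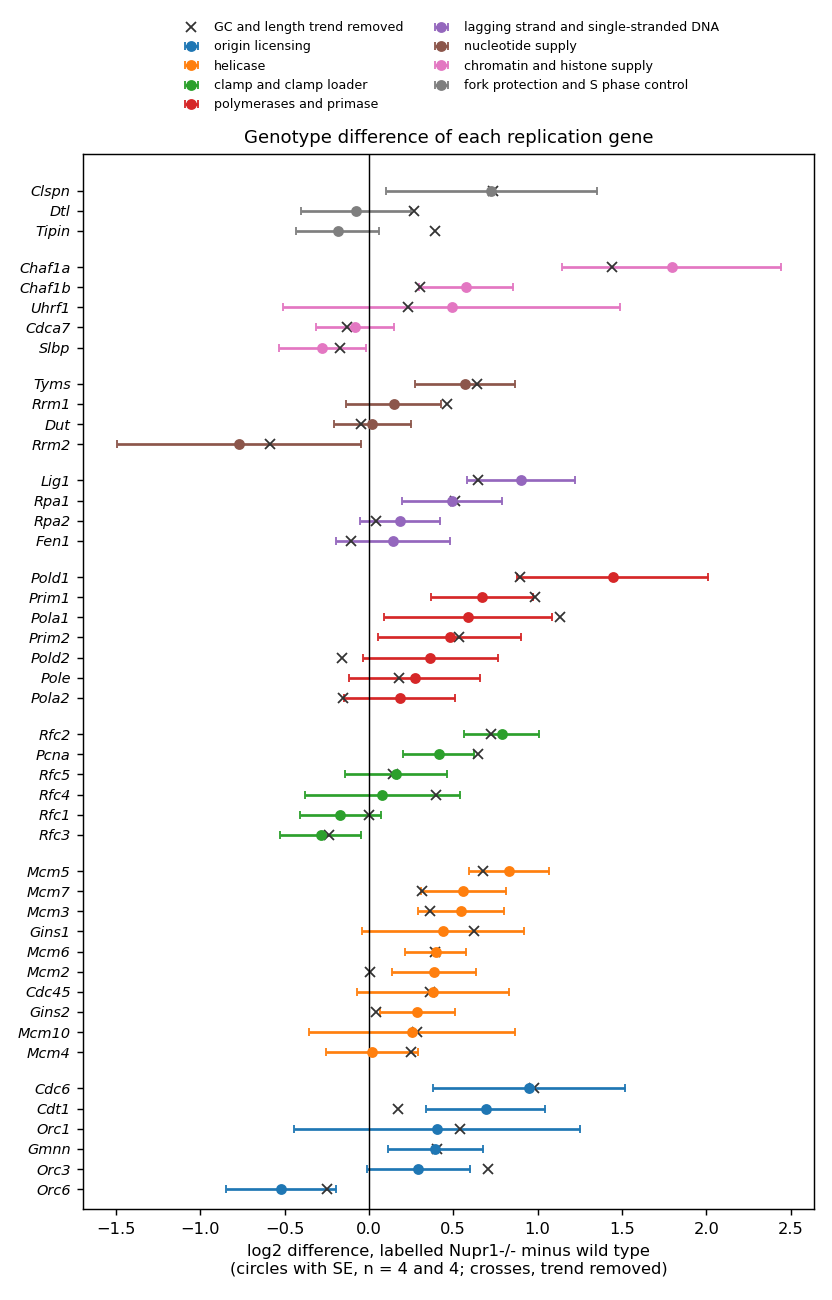
Log2 difference (knockout label minus wild type) of each of the 45 genes, grouped by role, as circles with SE bars; crosses are the same values after the trend with GC content and transcript length was removed. Of the 45 circles 37 lie right of 0, and the crosses lie right of 0 for 36.

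The trend of gene levels with transcript GC differed between the groups' libraries, and the genes were read with that in view. Across all tested genes, the Spearman correlation of a gene's deviation from its mean with its transcript GC was -0.31 to -0.14 in the 4 wild type libraries and 0.15 to 0.31 in the 4 labelled knockout. These correlations are across genes, which are not independent. Deviations are from the mean of all 8 libraries, so a trend in either group gives an opposite trend in the other. Of the 45 genes, the 18 with a GC of 50% or more were all higher under the knockout label, at a median of 0.52 on the log2 scale, against 69.4% and 0.31 for all genes of such GC. The 27 below 50% had 19 above 0 and a median of 0.29, against 32.5% and -0.27.

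After the GC and length trend of each library was removed, the median of the 45 genes was 0.36 and 36 lay above 0. None of the 45 passed, as 0.229% of all genes did. Over all genes, 5 then passed as higher and 20 as lower, against 185 and 233 before. Mcm5 kept a log2 difference of 0.68 and Rfc2 one of 0.72, Prim1 moved from 0.67 to 0.98, Pcna from 0.41 to 0.65, and Pold1 from 1.44 to 0.90. The signs of Rfc1, Pola2, Pold2, Fen1, Dut, Tipin and Dtl turned. With the trend removed and wild type library 2 left out, a fit added after the data were seen, Mcm5 and Chaf1a passed (2.08% of all genes).

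Levels between genes were compared as normalised reads per kilobase of the principal transcript in wild type. Pcna was highest at 1455 ± 429, followed by Mcm6 at 521 ± 105, Cdca7 at 352 ± 96.5, Slbp at 326 ± 58.8 and Dut at 323 ± 56.6. The last 3 did not differ beyond their spread. Within the Mcm2-7 ring, whose subunits stand in equal number in the complex, Mcm6 was followed by Mcm3 at 269.7 ± 115, Mcm7 at 244 ± 74.0, Mcm2 at 220.4 ± 70.8, Mcm5 at 217 ± 67.0 and Mcm4 at 141 ± 47.6. From Mcm3 to Mcm5 the neighbours in that order lay within each other's SD. Mcm10 at 11.9 ± 6.66, Orc1 at 11.005 ± 9.24 and Clspn at 6.75 ± 1.40 were the lowest of the 45.

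The spread between mice was described by role, and differences between roles were not tested. On the log2 scale, the SD of wild type exceeded that of the libraries labelled knockout for 33 of the 45 genes (73.3%, against 61.3% of all tested genes). The median SD of the 45 was 0.52 in wild type and 0.38 under the knockout label, against 0.58 and 0.48 over all genes. Helicase genes had a median wild type SD of 0.58 and polymerase and primase genes 0.82, while the clamp and its loader had 0.36. Under the knockout label these medians were 0.31, 0.50 and 0.30. In wild type the widest was Uhrf1, at 2.17, and the narrowest Tipin, at 0.11.

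In the main comparison, other genes of replication gave a different picture from the 45. Of 62 listed, 61 were in the table and 60 were tested. Their median log2 difference was -0.06, with 26 above 0, 1 gene rose, none fell by the test, and 13 had an unadjusted p under 0.05 (7 higher, 6 lower). That is 21.7%, near the 19.7% of all tested genes, and the 1 gene that passed is a smaller share than the 3.8% of all genes. The median of the 60 with the GC and length trend removed is not given here. The gene that rose was Dnmt1, the methyltransferase that copies DNA methylation onto the new strand, a partner of Uhrf1. It gave 531, 1033, 670.01 and 673 normalised reads in wild type and 1059, 1252, 1642 and 1831 under the knockout label. All 4 of the latter were above all wild type values. Its means were 727 ± 215 and 1446 ± 353, and the log2 difference was 1.002 ± 0.23 (limma adjusted p = 0.0234). Its adjusted p ran from 0.00243 to 0.078 with 1 library left out, missing the threshold without wild type library 1, 3 or 4 or knockout-labelled library 2, 3 or 4, and was 0.194 with the GC and length trend removed. The origin recognition subunit Orc5, also among those of smallest p, was at 614 ± 227 and 316 ± 30.8 (limma adjusted p = 0.0919).

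Among the marker lists of other blood cell types, only the summed megakaryocyte and platelet level did not overlap between the groups. Whether RNA of these markers came from such cells or from the HSCs was not tested. The part of these markers in the replication values was not tested. Of 12 megakaryocyte and platelet genes 10 were in the table, led by Vwf and Itga2b. By the test 4 of the 10 rose, against 3.8% of all tested genes in either direction (185 of 10989 higher). The groups did not overlap for 6 of the 10, all higher, against 5.78% of all tested genes in that direction. The summed level of the 10 was 893 to 1292 in wild type and 2108 to 2724 under the knockout label. Erythroid genes (7 of 12 in the table, led by Car2 and Tfrc) summed to 2638 to 4877 and 4289 to 6269. Of the 5 erythroid genes tested, 1 rose by the test. An unadjusted p under 0.05 was found for 3, all higher, against 9.91% of all tested genes in that direction. Car2 averaged 3354 ± 1212 and 5147 ± 876, and Tfrc 222 ± 108 and 121 ± 38.5. B cell genes (3 of 9, Ighm and Cd79b highest) summed to 290.4 to 7634 and 213 to 379.9. The 2 B cell genes tested did not pass but were lower at an unadjusted p under 0.05, as were 1071 of all 10989 tested genes. Progenitor genes (3 of 10, Cd34 and Flt3 highest) summed to 170 to 812 and 332 to 507. T and NK genes (3 of 9, Lck and Nkg7 highest) summed to 146 to 521 and 166 to 476, and 0 of 10 neutrophil genes were in the table.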

How the data were processed

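Polyadenylated RNA of sorted HSCs from 8 mice was reverse transcribed and made into Nextera XT libraries, per the labels' protocols. The submitters' processing notes name bcl2fastq, HISAT2, DESeq2, Subread with featureCounts, and the build mm10, without versions or settings. What the authors deposited is a normalised signal per gene, which by its values is a count of reads over a size factor of that library. All values (100%) were whole multiples of 1 step per library within 0.001, which gave back reads. The table has 11855 entries, 1 without a name (at most 0.00109% of a library's values), which was left out.

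The test was limma 3.58.1 in R 4.3.3 (eBayes, trend and robust) for genes that reached 10 in 4 or more libraries, on log2(value + 1), two-sided, with Benjamini-Hochberg adjustment over all 10989. Alternatives were added values of 5 and 10, other filters, edgeR 4.0.16, DESeq2 1.42.0, limma-voom, leaving out each library, a replicate block, and removal of a trend with GC and transcript length (splines of 5 degrees of freedom per library). Annotation was GENCODE M21 (mm10), matching 98.9% of names. The main limma fit was run on simulated counts with known differences, drawn without a GC trend. The alternative fits were not.

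The genes, lists and settings were chosen with earlier results of these data known. Genes given library by library are those with an unadjusted p under 0.05, those without overlap and the highest mean of each role; Rrm2 and Uhrf1 were added after their values were seen. Some genes that these rules name are not reported here.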

Additional observations from a re-analysis of the deposited data

Results flagged for a closer look

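Among the 90 sets of 4 values (45 genes in each group), 11 had 1 library far from the other 3, by the gap to its nearest neighbour relative to the whole range. For independent sets of 4 values chance would give about 1 in 20. These sets share the same 8 libraries and are not independent, and the share over all tested genes is not given here. Wild type library 2 was the highest of its group for Pola1 (274 normalised reads), Pold2 (746), Chaf1a (335) and Uhrf1 (260.1). Wild type library 1 was the lowest for Cdt1 (136) and Mcm2 (389), and wild type library 3 the highest for Orc3 (364). Among the libraries labelled knockout, library 4 was the highest for Chaf1a (306) and Tipin (546), and library 2 the lowest for Orc1 (13.7) and Mcm4 (387). Of the 11 sets, 6 therefore lie in wild type libraries 1 and 2.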

How the results depend on the processing

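The sign of the log2 difference turned for 7 of the 45 genes without wild type library 1 and for 7 with the GC and length trend removed, and that of the mitosis median without wild type library 1 or knockout-labelled library 4. Over all genes, 418 passed in the main test, 764 with DESeq2, 25 with the GC and length trend removed (25 also with the replicate block added), 224 with that trend removed and wild type library 2 left out, and 48 to 883 with 1 library left out. Of the 45 replication genes, 0 passed in the main test, 2 with 5 or with 10 added, 2 with the filter at 50, 2 with DESeq2, 1 with limma-voom, 2 with the trend removed and wild type library 2 left out, 3 without wild type libraries 1 and 2, and 0 to 5 with 1 library left out. Those without overlap numbered 3, and 3 to 10 with 1 library left out. The 10, without wild type library 2, are 22.2% of the 45, against 20.5% of all genes there. Without wild type library 1, the 3 are 6.67%, against 15.4% of all genes. Of the other replication genes 1 passed, 2 with the filter at 50, 3 with DESeq2, 0 with the trend removed (0 also with the block), 3 without wild type libraries 1 and 2, and 0 to 5 with 1 library left out. The cause of these moves was not tested.

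The groups share replicate numbers, but same-numbered libraries did not deviate together (correlations -0.0566 to 0.0148), and 0 of 4 wild type libraries correlated best with its own number. With the replicate block 277 genes passed (2.52%), and 1 of the 45, Mcm5 (limma adjusted p = 0.043). For single genes, 300 values under an alternative kept their direction and side of the threshold, 29 moved, 20 newly passed and 8, of Dnmt1, no longer passed. The SE of the log2 differences of the 45 genes, 0.18 (Mcm6) to 1.001 (Uhrf1) with 4 mice a group, limits which differences could be detected.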

Other observations

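Subunits were grouped by complex after their values were seen. All 6 subunits of the Mcm2-7 ring had log2 differences above 0, and those of the complexes named next lay on both sides of it. In the origin recognition complex, Orc1 and Orc3 had log2 differences of 0.40 and 0.29, and Orc2, Orc4, Orc5 and Orc6 of -1.08, -1.96, -0.87 and -0.52. In the GINS complex, which holds the active helicase together, Gins1, Gins2 and Gins4 had 0.44, 0.29 and 0.12, and Gins3 -0.68 (384 ± 140.2 normalised reads in wild type and 231 ± 43.7 under the knockout label, SD, n = 4). Of the ribonucleotide reductase subunits, Rrm1 had 0.15, Rrm2 -0.77 and Rrm2b, the form that is induced by Trp53, -2.27 (57.7 ± 25.8 and 13.8 ± 12.2). None of these passed the limma test, with adjusted p = 0.159 for Rrm2b. With the GC and length trend removed, Orc2, Orc4 and Orc5 had -0.77, -1.03 and -0.48, Gins3 -0.61 and Rrm2b -1.56, while Rpa3, the small subunit of replication protein A, moved from -0.90 to -0.04. These members of the complexes with lower values have transcripts of 36.8% to 47.9% GC. Members of the same complexes above 0 have 43.0% (Orc3) to 53.4% (Gins2), so the ranges overlap.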
